A study of Homo sapiens with 6 samples.

Results

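ARID2, TNKS2, ASPM, NCAPD3, ATP7A, AHCTF1 and KTN1 are 7 human genes whose coding exons each held several AGO2-bound regions with a match to the seed of miR-194. All peaks with 1 of these gene names in the deposited list were taken, 53 of 7772 peaks. Of these 53, 47 lay in coding exons, and 23 of the 47 held a match of at least 7 bases. The genes were picked from this list for their repeated coding matches, so the number and place of the matches describe the choice and carry no test. Altogether 9 of the 1591 genes with a coding exon peak (0.566%) had at least 3 such matched peaks: these 7, DYNC1H1 and TMEM263. Just outside that number, 20 genes had 2 matched coding peaks and 317 had 1.

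The cells were 22RV1, an established line of human prostate cancer. A group of 3 libraries came from cells given a miR-194 mimic at 20 nM and a group of 3 from cells given a negative control at the same dose. All 6 shared ultraviolet crosslinking 24 h later and immunoprecipitation of AGO2, an Argonaute protein loaded with microRNAs. Both groups are 1 cell line, and separate cultures within a group are not stated.

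The study asked which RNAs miR-194 binds, but the deposited table is 1 merged list of peaks with a single score per peak. It has no value per library or group, so nothing below compares mimic with control, no value has a replicate error, and the depth behind a peak is unknown. The score is the authors' own, a whole number from 5 to 1270 with a median of 15, and no label or file header defines it. It is used below only to describe and rank peaks within the list. Of 14 genes that mark prostate luminal cells, 5 had a peak, among them FOXA1, GRHL2 and STEAP2, and the rest had none. Among 12 genes of blood, vessel, stromal and other cells 0 had one. A gene without a peak is not shown to be silent.

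MicroRNAs guide Argonaute proteins to RNAs by pairing of the seed, bases 2 to 8 of the microRNA, with a complementary site. Effective sites are best known in 3′ UTRs. Sites in coding sequence are also bound by Argonaute, where translating ribosomes pass over them, and they usually have weaker effects on RNA level than sites in 3′ UTRs. The 7 genes do different work. ARID2 is a subunit of the PBAF chromatin remodelling complex, and NCAPD3 is a subunit of condensin II, which compacts mitotic chromosomes. AHCTF1 (also called ELYS) starts nuclear pore assembly on chromatin after mitosis, and ASPM is a spindle pole protein whose loss causes microcephaly. TNKS2 is a tankyrase, an enzyme that adds poly-ADP-ribose to proteins such as AXIN. ATP7A is a copper-transporting ATPase, and KTN1 (kinectin) is a membrane protein of the endoplasmic reticulum that binds kinesin.

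The mature microRNA is shown first, from RefSeq (GRCh38.p14), with its seed in capitals, since every site below is defined by it. The same 22 bases are encoded by MIR194-1 on chromosome 1 and MIR194-2 on chromosome 11.
hsa-miR-194-5p: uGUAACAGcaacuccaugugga
An 8mer site reads CTGTTACA, a 7mer-m8 site CTGTTAC and a 7mer-A1 site TGTTACA. A match below means any of these 3 on the strand of the peak. A 6mer is TGTTAC alone, and a variant is a listed site without the 6mer.

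The next lines give 11 of the 23 matched coding sites, chosen to show the site in the highest peak of each gene other than ASPM and the further sites that the text returns to. Each is 30 bases of the sense strand of the GENCODE 29 transcript, 5′ to 3′, with the matched bases in capitals.
TNKS2 exon 17: aatttagaagttgcagagtattTGTTACAa
TNKS2 exon 19: gcccccatctgctctgccctctTGTTACAa
TNKS2 exon 25: tccagttcacaaagacagatctTGTTACAt
NCAPD3 exon 11: ttgcacactgtctggagttgaCTGTTACca
AHCTF1 exon 6: tgagaatgatcctcggaattgCTGTTACtt
AHCTF1 exon 33, first site: accagcaaatacctcaaaattCTGTTACgc
AHCTF1 exon 33, next site: aaaaagaagttaaggtttcatCTGTTACAa
KTN1 exon 39: cagagatggaacgatctacctaTGTTACAg
ATP7A exon 3: taactgacaccttgtttctgaCTGTTACgg
ARID2 exon 15, middle site: gacagatcccttcaggcactcCTGTTACAg
ARID2 exon 15, last site: caaataaagtaggagttagaatTGTTACAa
The seed matches are alike by definition.

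TNKS2 held the highest scores of the 7 genes. It had 11 coding peaks, 4 of them matched. The matched peaks scored 48 in exon 6 of 27, 353 in exon 17, 123 in exon 19 and 368 in exon 25. The exon 25 peak (chr10:93619337-93619441, hg19, plus strand) ranked 17 among the 2567 coding exon peaks of the table, and the exon 17 peak (chr10:93604677-93604785) ranked 20. The matched peaks of exons 17, 19 and 25 held the 7mer-A1 shown above, and that of exon 6 held a 7mer-m8. TNKS2 had no 8mer in a peak. The 7 coding peaks without a match scored 14, 21, 22, 23, 30, 38 and 118. The 118 belonged to exon 14, whose peak held a variant site, and it lay above the matched 48 of exon 6, so the groups overlapped. On the log2 scale the matched peaks averaged 7.38 and the others 4.89, a difference of 2.49, or 5.62-fold. Median length was 96.5 nt with a match and 107 nt without. A further peak, in intron 26, scored 19 with no listed site.

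NCAPD3 had 5 coding peaks, 3 of them matched. The matched peaks scored 57 in exon 6 of 35 (7mer-A1), 213 in exon 11 (7mer-m8, chr11:134073499-134073664, minus strand) and 33 in exon 25 (7mer-m8). The peaks without a match scored 48 in exon 7 and 10 in exon 11. The lowest matched peak was thus below the higher unmatched one. The difference in mean log2 score was 1.75 (3.36-fold), and it was 0.62 when only peaks scoring at least 12 were kept, which drops the 10.

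AHCTF1 had 10 coding peaks, 3 of them matched, and the widest gap of the 7 genes. The matched peaks scored 178 in exon 6 of 36 (7mer-m8, chr1:247068844-247068929, minus strand), and 147 (7mer-m8, chr1:247013808-247013948) and 131 (8mer, chr1:247013675-247013738) in exon 33. The 7 without a match scored 8, 9, 13, 14, 20, 22 and 22. Every matched peak was above every unmatched one. The difference in mean log2 score was 3.39, or 10.5-fold. The sites of exon 33 were 180 nt apart in the coding sequence, and a peak of score 22 lay between their peaks, 3 nt from each. The peak of score 20, in exon 5, held a variant site. AHCTF1 also had a 3′ UTR peak with a score of 31 and no listed site.

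ASPM had 8 coding peaks, 3 of them matched. The matched peaks scored 23 in exon 3 of 28 (7mer-m8), and 130 (8mer, chr1:197074071-197074257, minus strand) and 29 (8mer, chr1:197069896-197070125) in exon 18. The peaks without a match scored 5, 7, 12, 13 and 16, below all 3. The difference in mean log2 score was 2.19, or 4.55-fold. The unmatched peaks were shorter, with a median of 53 nt against 187 nt. After adjusting scores for peak length the difference was 1.28. The peak of score 7 held a 6mer. The peak of score 130 held a variant besides its 8mer, and that of score 29 also held a site on the opposite strand.

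ATP7A had 4 coding peaks, 3 of them matched. The matched peaks scored 26 in exon 2 of 22 of 1 transcript (7mer-m8), and 55 in exon 3 (7mer-m8, chrX:77243866-77243977, plus strand) and 23 in exon 5 of 23 (7mer-A1) of another. The unmatched peak, also in exon 3, scored 6. It was below all 3, by 2.42 in mean log2 score, with a single peak on that side.

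KTN1 had 5 coding peaks, 3 of them matched. The matched peaks scored 55 in exon 30 of 44 (8mer), 20 in exon 36 (7mer-A1) and 60 in exon 39 (7mer-A1, chr14:56139649-56139730, plus strand). The peaks without a match scored 23 in exon 27 and 6 in exon 36, so the groups overlapped. The difference in mean log2 score was 1.78, but it rested on the peak of score 6, which is 1 nt long in the table. Without that peak it was 0.81. Adjusted for peak length it was -0.42, and 0.01 when adjusted without the 1 nt peak. An intron peak scored 12 with no listed site.

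ARID2 was the gene in which every coding peak was matched. Its 4 coding peaks scored 11 in exon 9 of 21, and 15, 23 and 54 in exon 15, and no unmatched coding peak was there to set against them. The 3 lowest held 8mers and the highest (chr12:46246485-46246606, plus strand) a 7mer-A1. The peaks of 15 and 23 adjoined each other with a gap of 2 nt and had sites 105 nt apart. Outside the coding exons, ARID2 had a 3′ UTR peak with a score of 24 and a 7mer-m8, the only matched peak of the 7 genes outside coding exons. Its promoter peaks scored 22 and 10 with no listed site.

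**Figure D1:**
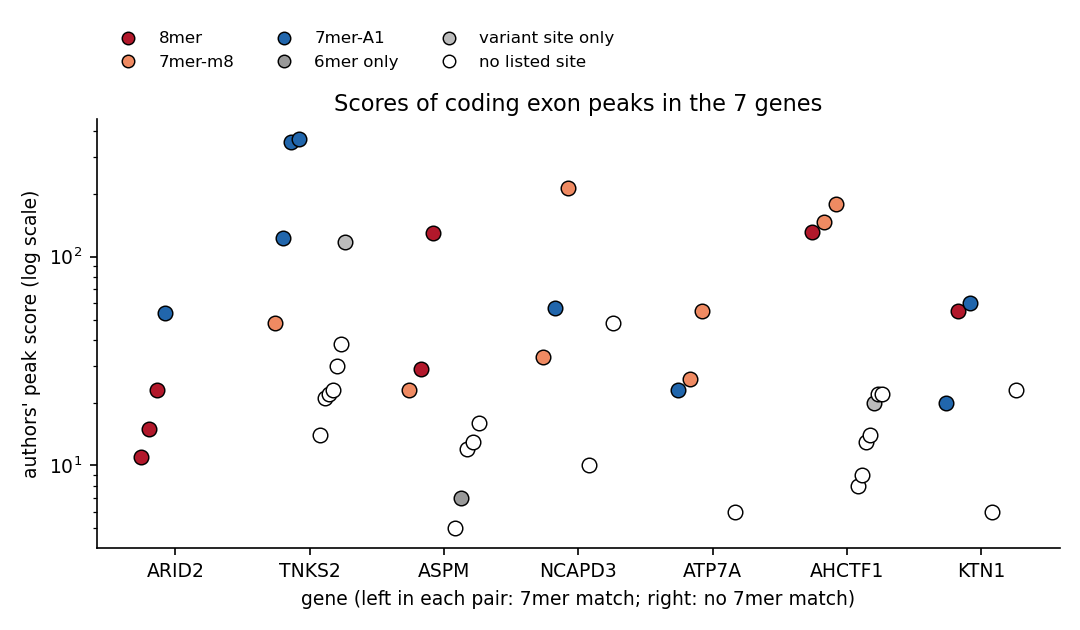
Authors' score (log scale) of each of the 47 coding exon peaks of the 7 genes, with matched peaks on the left and unmatched peaks on the right of each gene, coloured by site class. TNKS2 reaches 353 and 368 with 7mer-A1 sites, AHCTF1 separates matched (131 to 178) from unmatched peaks (8 to 22), and ARID2 has matched peaks alone.

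Taking the genes together, the matched coding peaks had a median score of 55 (23 peaks, 11 to 368) and the unmatched ones a median of 15 (24 peaks, 5 to 118). In the other genes of the table these medians were 34 (363 peaks) and 15 (2157 peaks). The members' unmatched peaks therefore had the same median as those of other genes. Median peak length was 105 nt with a match and 65 nt without in the 7 genes, and 90 nt and 66 nt in other genes. What part length has in these medians was not tested. The score was above the table's median of 15 in 21 of the 23 matched and 12 of the 24 unmatched coding peaks. Most matched coding peaks of other genes were above it too, as their lower quartile was 20. Over coding exon peaks alone the median was 17.

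Among the site classes of the 7 genes, the 8mers had the lowest median score. The 7 peaks with an 8mer had a median of 29 (11 to 131), the 8 with a 7mer-m8 a median of 51.5 (23 to 213), and the 8 with a 7mer-A1 a median of 58.5 (20 to 368). In other genes the order was different, with medians of 43, 31 and 34.5. The classes were unevenly spread over the genes, and the part of the gene in these medians was not tested: 3 of the 7 8mers were in ARID2 and 3 of the 8 7mer-A1 sites were in TNKS2. The shares of the classes were near those elsewhere. An 8mer made up 30.4% of the matched coding peaks against 28.4% in other genes. For a 7mer-m8 it was 34.8% against 32.0%, and for a 7mer-A1 34.8% against 39.7%. Peaks of the same gene are not replicates, so these shares are given without an interval.

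The highest coding peak held a match in each of the 6 genes that had both kinds, and the mean log2 score was higher with a match in all 6. Over all genes with both kinds of coding peak these shares were 84.3% and 91.0% of 178 genes, so the members' direction is that of most genes. Every matched peak was above every unmatched one in 3 of the 6 genes (AHCTF1, ASPM and ATP7A), where the share over the 178 genes was 80.9%. Such a separation asks more of a gene with several peaks on each side, and what part this has in the shares was not tested. The median difference in mean log2 score was 2.30 over the 6 genes (1.75 to 3.39), and 1.46 over the 172 other genes (interquartile range 0.72 to 2.27). The difference between members and other genes was not tested, because the genes were chosen with these scores known.

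**Figure D2:**
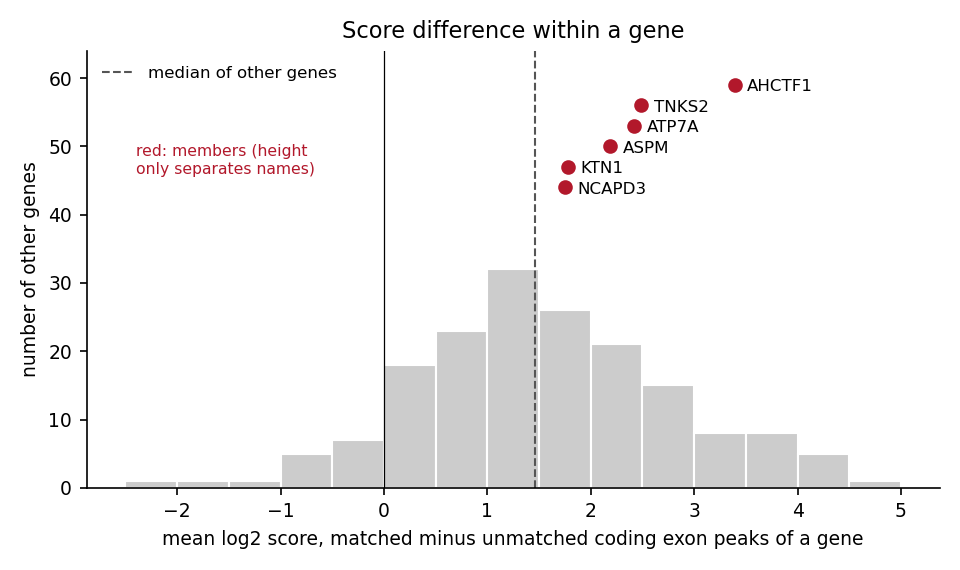
Mean log2 score of matched minus unmatched coding exon peaks, for 172 other genes (grey bars, number of genes) and the 6 members with both kinds of peak (red dots, whose height only separates the names). The members lie from 1.75 to 3.39, all right of the dashed median of the other genes at 1.46.

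Peaks of the same exon share more of the transcript, and 6 exons of the 7 genes held both kinds. In NCAPD3 exon 11 the matched peak scored 213 and the unmatched one, 38 nt away, scored 10. In TNKS2 exon 25 the scores were 368 and 38 with a gap of 5 nt, and in ATP7A exon 3 they were 55 and 6 with a gap of 2 nt. In each of these exons the peak holding the site was several times as high as its neighbour. The remaining exons gave 130 and 29 against 12, 7 and 5 in ASPM exon 18, 147 and 131 against 22 and 22 in AHCTF1 exon 33, and 20 against 6 in KTN1 exon 36. The unmatched peak of KTN1 exon 36 is the one that is 1 nt long, and it is kept in the values here. The matched side was highest in all 6, where the share over all 97 exons with both kinds was 92.8%. The median difference in mean log2 score was 3.12 in these exons, and 1.70 in 91 exons of other genes.

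**Figure D3:**
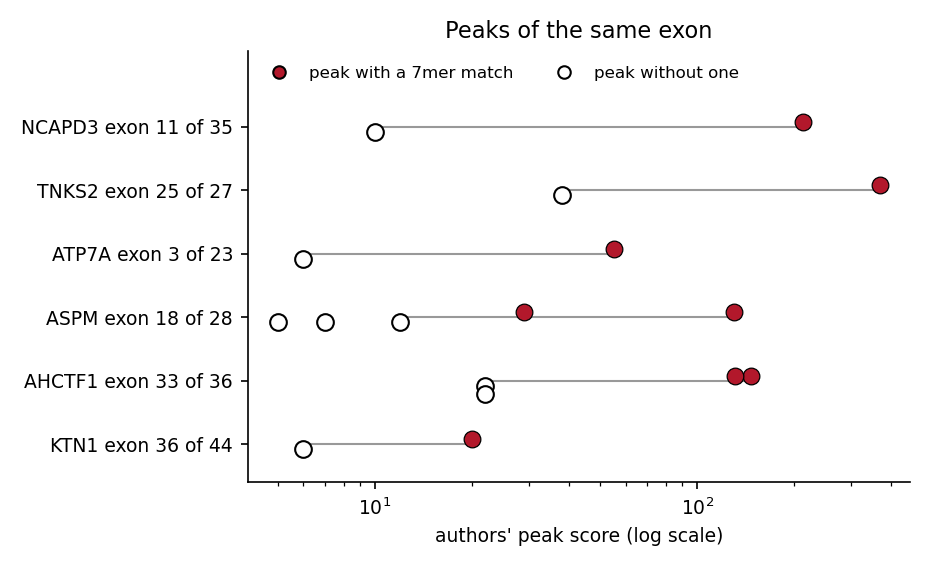
Authors' score (log scale) of coding peaks in the 6 exons of the 7 genes that held peaks with a match (red) and without one (open). The line joins the highest peak of each kind, and in each exon the highest red dot lies to the right of all open dots. The open dot of KTN1 exon 36 is a peak 1 nt long.

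Unmatched peaks beside a matched one had a lower median score than unmatched peaks farther away, a difference that was not tested. In the 7 genes, 6 unmatched coding peaks lay under 100 nt from a matched peak of their gene and had a median score of 8 (5 to 38), and 18 lay farther away with a median of 18 (7 to 118). In other genes with a matched coding peak the medians were 10 (106 peaks) and 17.5 (240 peaks). The table does not tell how neighbouring peaks were split.

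The coding sequences of the 7 genes held few miR-194 matches outside the listed peaks. All 23 listed sites were found in the coding sequence of the GENCODE 29 transcript of the same RefSeq accession. Those coding sequences held 25 matches in all, so 23 of 25 (92.0%) lay in a listed peak. ARID2 had 4 of 4, ASPM, ATP7A, AHCTF1 and KTN1 had 3 of 3 each, TNKS2 had 4 of 5 and NCAPD3 had 3 of 4. The matches in no listed peak were an 8mer at codon 143 of TNKS2, in exon 3, and a 7mer-m8 at codon 322 of NCAPD3, in exon 8. Neither exon had a peak. In other genes with a coding exon peak and a match in the coding sequence, 358 of 675 matches (53.0%) lay in a listed peak. That share was 34.5% in the 25 other genes with at least 3 matches, of which 2 had all of theirs in peaks. The choice of the 7 genes for repeated matched peaks fixes a high share for them, so these values are a description.

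ASPM reached its 3 matches in the longest coding sequence of the 7 (10434 nt, 0.288 matches per kb), and TNKS2 had 5 in the shortest (3501 nt, 1.43 per kb). Over the 7 genes there were 0.635 matches per kb of coding sequence, against 0.165 over 1555 other genes with a coding peak. The choice of the 7 genes for repeated matched peaks fixes a high density for them, so these densities are a description. The reverse complement of the 7mers occurred 0.203 times per kb in the 7 genes and 0.0796 in the others. These values are not counted alike, since the reverse complement of an 8mer counted as 2 and an 8mer itself as 1. The 3′ UTRs of the 7 GENCODE transcripts held 4 matches, 2 in TNKS2, 1 in ARID2 and 1 in AHCTF1. The ARID2 match was the listed one. TNKS2 had no 3′ UTR peak, and no site was listed in that of AHCTF1. The 3′ UTR of ATP7A, 3825 nt long, held none. The GENCODE 3′ UTRs can differ from those of the table.

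**Figure D4:**
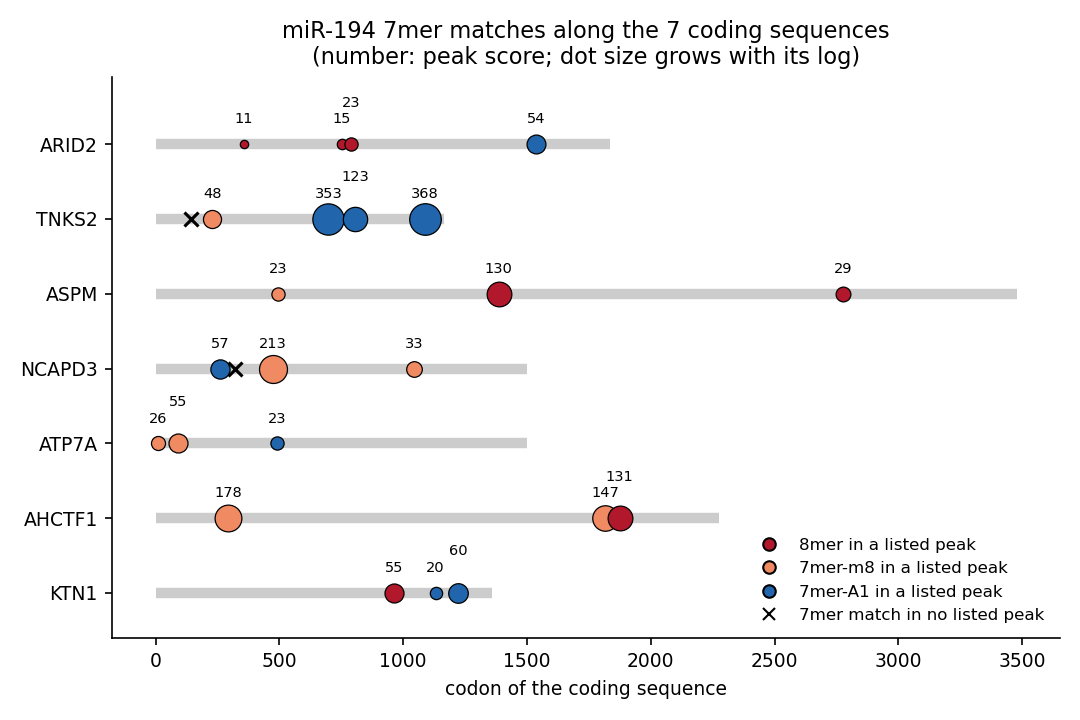
Place of the 25 miR-194 7mer matches along the coding sequences of the 7 genes (grey bars, in codons from the start), coloured by class, with the authors' peak score above each dot and crosses for the 2 matches in no listed peak. Sites spread from codon 9 of ATP7A to codon 1089 of 1167 in TNKS2, and the high TNKS2 peaks lie at codons 698, 806 and 1089.

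The sites were spread over the coding sequences. The first was at codon 9 of ATP7A (0.609% of the coding sequence of its transcript) and the last, relative to length, at codon 1089 of 1167 in TNKS2 (93.2%). Before the midpoint lay 12 of the 23. The 3 ATP7A sites were early, at codons 9, 91 and 490, and the 3 KTN1 sites were late, at codons 962, 1131 and 1223 of 1358. In KTN1 the site listed in exon 30 was in exon 29 by the GENCODE numbering.

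Further features of the sites were near those of other coding sites. The first base of the 6mer stood at the third place of a codon in 13 of 23 sites (56.5%), at the first in 5 and at the second in 5. In 359 other coding sites these shares were 45.4%, 28.1% and 26.5%. All 4 coding sites of ARID2 were in the same frame, with the 6mer starting at the third place. The 15 bases on each side of the site had a median A or T content of 56.7% (43.3 to 80.0%), against 53.3% in other coding sites. The base opposite base 9 of the microRNA also paired in 5 of 23 sites (21.7%), against 19.2%. A run of at least 4 bases complementary to the 3′ part of miR-194, from base 12 on, was present in the 15 bases before 9 of the 23 sites (39.1%), against 38.3% elsewhere. The longest such runs had 5 bases, in NCAPD3 exon 11 (tggag in the line above) and in the first site of ARID2 exon 15, which is not among the lines shown. These are matches of letters, with no test of pairing.

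Sites lay near the centre of their peaks. The middle of the 6mer was a median of 12 nt from the peak centre in the 7 genes (0 to 56.5 nt), against 11.5 nt for 370 sites in coding peaks of other genes. Within 20 nt lay 16 of 23 sites (69.6%), against 68.9%. The site was 5′ of the centre in 14 and 3′ of it in 8, with 1 at the centre. In other genes more sites were on the 3′ side (203) than on the 5′ side (162). This difference from the 7 genes was not tested. Of the 23 sites, the farthest were the 8mers of the long ASPM peaks. They lay 56.5 nt and 39 nt to the 5′ side in peaks of 187 nt and 230 nt. The site nearest the centre of a peak scoring above 100 was 1 nt away, in TNKS2 exon 19 and in the AHCTF1 8mer peak.

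**Figure D5:**
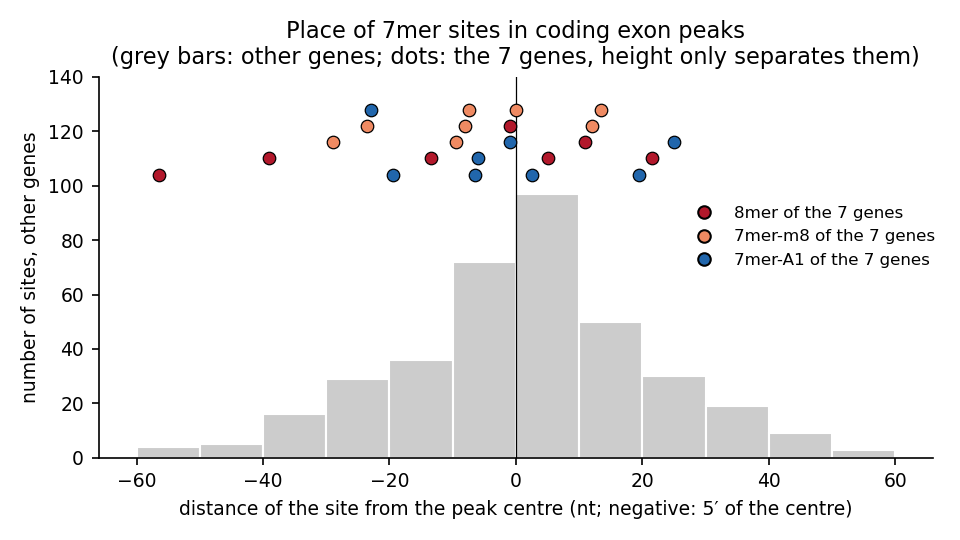
Distance of 7mer sites from the centre of their coding exon peak in nt, negative towards the 5′ end, for 370 sites of other genes (grey bars, number of sites) and the 23 sites of the 7 genes (dots, whose height only separates them). Of the 23, 16 lie within 20 nt of the centre, and 2 ASPM 8mers lie farthest to the 5′ side.

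The genes most like the 7, by the number of matched coding peaks and then by the highest score among them, were DYNC1H1, TMEM263, NAMPT, FH and PRKDC. DYNC1H1, the dynein heavy chain, had 3 matched peaks (257, 126 and 87) among 18 coding peaks. TMEM263 had 3 (26, 21 and 10), all in exon 4 of 4 and all adjoining, so its repeats come from 1 short stretch. NAMPT, an enzyme of NAD synthesis, had 2 (316 and 31), FH, the fumarase gene, had 2 (189 and 136), and PRKDC, a DNA repair kinase, had 2 (177 and 77). The matched coding peaks of TNKS2, NCAPD3, ATP7A and KTN1 were each in different exons, while ARID2, ASPM and AHCTF1 had more than 1 in an exon.

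Genes related to the 7 in function were taken from 7 lists, which are not complete. Of 86 such genes, 43 had a peak and 6 of these a match (14.0%), where the share over all named genes was 23.6%. A match in a coding peak was present in 5 of the 43 (11.6%), where the share over all named genes was 9.46%. Of the 43, 0 had 2 or more matched coding peaks, where the share over all named genes was 0.793%. The coding shares are near the background, and nothing about the related genes is read from them. Among nuclear pore genes 11 of 16 had a peak and 3 a match: NUP205 (185, 7mer-A1) and NUP107 (15, 7mer-A1), both of the pore scaffold, and TPR (24, 8mer), of the nuclear basket. Among chromatin remodelling genes 9 of 14 had a peak and DPF2, a BAF subunit, a match (35, 7mer-A1). Among kinesin and endoplasmic reticulum genes 5 of 10 had a peak. Of these, ESYT1, a tether between the endoplasmic reticulum and the plasma membrane, had a coding match (248, 7mer-A1) and LRRC59 an intron match (13, 8mer). Condensin and cohesin genes had peaks in 8 of 13, spindle pole genes in 5 of 13, tankyrase-related genes in 4 of 11 and copper genes in 2 of 10, with 0 matches.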

How the data were processed

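AGO2 HITS-CLIP of 22RV1 cells gave 6 libraries, and the deposited table holds 1 score per merged peak, whose making is not described. The tools named in the submitters' processing notes are MACS2, TopHat2 2.0.9, cutadapt 1.8.1, SAMtools and FastQC, with the build hg19 and no order or settings. Peak positions are the authors' hg19 coordinates, per the file headers, and depth is unknown. There were 0 columns of other samples.

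Coding exon peaks are those annotated "exon" in the table. Listed sites were classed by their bases, and a peak by its best site on its own strand. Scores were compared as mean log2 score within a gene, and adjusted for length by the slope of log2 score on log2 length over coding exon peaks (0.57). Sites were placed in GENCODE 29 coding sequences by accession, bases and exon number, with no conversion of coordinates. In all 20 pairs of sites sharing an exon, spacing from the table equalled spacing in the transcript.

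The genes, gene lists and measures were chosen with earlier results of these data known, so no test was made. Besides the 7 genes, the text names the 5 other genes with most matched coding peaks, and related genes with a matched peak. The score difference within a gene, and no other summary, was checked on scores shuffled among peaks with a known difference added. Values were computed with pandas 2.3.3, numpy 2.4.6 and scipy 1.17.1 in Python 3.11.15. Some marker genes and 1 site sequence are not reported here.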

Additional observations from a re-analysis of the deposited data

How the results depend on the processing

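Counting 8mers alone left 7 matched peaks, both in coding exons and over all peaks of the 7 genes, and the highest coding peak then held a match in 1 of the 4 genes with both kinds, ASPM, and not in ARID2, AHCTF1 and KTN1. With other classes, a score above the median or neighbouring matched peaks joined, the count of matched coding peaks stayed between 21 and 26. The median score difference of 2.30 was 1.71 with only peaks scoring at least 12, over 5 genes, as ATP7A then had no unmatched peak. It was 3.12 with peaks of the same exon and 2.18 without peaks shorter than 30 nt, alternatives chosen after seeing the data. Its values under the other alternatives ran from 1.93 to 2.19. The 1.93, with 8mers alone, is over 4 genes. ARID2 is among them with a value of -1.79, though it had no unmatched coding peak and no difference in the main setting. Its 7mer-A1 peak of score 54 then counted as unmatched. With scores adjusted for length it was 2.03, and the highest coding peak held a match in 5 of 6 genes. The median distance of sites from the centre ran from 12 to 13.5 nt. No paired analysis was possible because the table holds no value per library. Leaving out a library was not possible for the same reason.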
